A study of Mus musculus with 6 samples.

Results

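mmu-miR-186-5p is the 5p arm of a mouse microRNA (miRNA) whose gene, Mir186, lies in an intron of Zranb2. It was examined in liver small RNA libraries of high-fat diet (HFD) fed mice, and it was found as the 1 of 1039 rows of the expression table whose name starts with mmu-miR-186-. The 3p arm has no row. The J group libraries come from 3 wild type ICR mice that were given JTXK granule, a Chinese herbal compound, by gavage for 8 weeks. Those of the M group come from 3 wild type ICR mice that received sterile water in its place. The authors selected these mice for sequencing from larger groups, and the paper does not say how. Both groups had been on HFD for 12 weeks before the gavage, and the liver was taken at 30 weeks of age. ICR mice are an outbred stock, each library comes from 1 mouse, and both groups were HFD fed, so the comparison sets treated against untreated HFD fed mice. No liver of a mouse on a normal diet is analysed here. Nothing in the sources pairs J with M mice. mmu-miR-186-5p was chosen by its difference in RPM between the J and M libraries, so that difference between the groups is given as a description with no test.

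A miRNA is cut from a hairpin in a longer transcript. One strand of the cut duplex is loaded into the silencing complex, where bases 2 to 8 of the strand, the seed, pair with target mRNAs and lower their translation or stability. An intronic miRNA such as miR-186 is made from the primary transcript of its host gene, so host and miRNA can share a promoter. Zranb2 codes for a zinc finger protein that takes part in RNA splicing. miR-186-5p is found in many tissues, and it is among the miRNAs that have been used as references when miRNAs are measured by qPCR. The libraries hold no mRNA, so Zranb2 itself was not measured.

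The sequences are shown because the seed of this miRNA is shared with no other mouse miRNA searched. They are taken from RefSeq (GRCm38.p6), and the capitals mark the seed in each arm.
mmu-miR-186-5p: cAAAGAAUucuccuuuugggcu
mmu-miR-186-3p: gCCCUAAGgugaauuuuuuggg
Among 1679 mature mouse miRNA names searched, 0 others had the 5p seed AAAGAAU, and 0 others had bases 2 to 7 of either arm. The reverse complement of the 5p seed, which a matching target would carry, is AUUCUUU. The nearest other mature sequence was 7 single-base edits away from mmu-miR-186-5p, so no near-identical copy is among these names.

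Mir186 lies on the plus strand of chromosome 3, at chr3:157544279-157544349 (GRCm38), and it is 71 bases long. It sits in a 1719-base intron of Zranb2 (chr3:157534160-157548410, plus strand, GENCODE), 1034 bases after the preceding exon and 614 bases before the next. In the Zranb2 transcripts with 10 or 11 exons, this is the intron between exons 8 and 9. No exon of Zranb2 in the annotation overlaps the hairpin. The 5p arm covers bases 7 to 28 of the hairpin and the 3p arm bases 46 to 67, with 17 bases between them. By the structure of lowest free energy (-33.1 kcal/mol), 19 of the 22 bases of the 5p arm are paired, 18 of them with the 3p arm, and all 7 seed bases are among the paired. The next miRNA gene on the chromosome in the sequence table is Mir3963, 6520416 bases away, so Mir186 is not part of a miRNA cluster there.

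The 6 libraries held 2626353 to 4314134 miRNA reads. Values are RPM, in which each read is scaled by the total of miRNA reads in its library, so a rise of an abundant miRNA lowers the RPM of all others. M group replicate 1 stood apart. Its label carries another number in the prefix than those of the other M libraries, and what this number means is not given in the sources used here. Its Pearson correlations of log2(RPM + 1) with the other libraries were 0.931 to 0.941, while those among the other 5 libraries were 0.973 to 0.989. Of 548 miRNAs compared between the groups by limma, 29 passed the thresholds of the study, namely a log2 difference of more than 0.3 in size with p under 0.05 before adjustment. This is 5.29% of those tested, with 21 lower in the J group (3.83%) and 8 higher (1.46%). The balance turned with the scaling, to 13 lower and 17 higher after median-of-ratios scaling and to 11 lower and 20 higher under quantile normalization. The number with an adjusted p under 0.05 (Benjamini-Hochberg) was 0 with limma, 0 with edgeR and 2 with DESeq2. An unadjusted p under 0.05 was given to 29, 45 and 36 miRNAs by these tools.

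J group replicates 1 to 3 held 542, 565 and 450 reads of mmu-miR-186-5p. M group replicates 1 to 3 held 823, 1068 and 1024. In RPM the J libraries had 126, 158 and 160.4, and the M libraries had 313, 313 and 238. All 3 J libraries lay below all 3 M libraries. The lowest M library was 1.49-fold above the highest J library, a gap of 78.0 RPM. The highest and the lowest library of a group differed 1.28-fold in the J group and 1.31-fold in the M group. The J mean was 148 ± 19.3 RPM (SD, n = 3) and that of M was 288 ± 43.2 RPM (SD, n = 3), so the M mean was 1.95-fold the J mean. On the log2(RPM + 1) scale the J group was lower by 0.96 (J minus M, -0.96 with a standard error, SE, of 0.22). These are the values that the choice of this miRNA rests on. Every J library was below every M library for 51 of the 548 miRNAs (9.31%) and above every M library for 23 (4.2%), so that 13.5% had groups that did not overlap, and 44 miRNAs had a more negative difference than mmu-miR-186-5p.

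Counting error was small beside the spread between mice. The 95% Wilson interval was 115 to 137 RPM in J group replicate 1 and 224 to 253 RPM in M group replicate 3. Such intervals cover counting error only, since PCR duplicates could not be removed. With 450 to 1068 reads, the relative counting error was 4.71% at the lowest and 3.06% at the highest count. The spread between mice was larger, with a coefficient of variation of 13.1% in the J group and 15.0% in the M group. The miRNA took between 0.0126% and 0.0160% of the miRNA reads of a J library and between 0.0238% and 0.0313% of those of an M library. Its rank by RPM, the same values in another form, ran from 111 to 116 for J and from 87 to 97 for M.

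**Figure D1:**
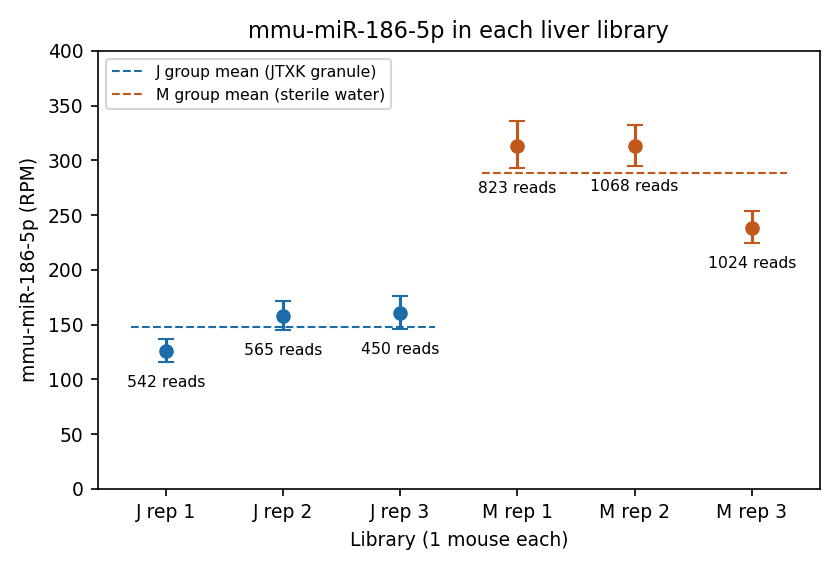
mmu-miR-186-5p in RPM (vertical axis) in each of the 6 liver libraries (horizontal axis), with 95% Wilson intervals as bars, read counts below each point and dashed lines at the group means. The J libraries lie between 126 and 160.4 RPM and the M libraries between 238 and 313 RPM.

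The difference had the same direction under each scaling tried, but its size moved. Over all 548 miRNAs the median of J minus M was -0.13, so mmu-miR-186-5p lay at -0.82 relative to that median. After scaling by the median of ratios it was -0.85, with a median over all miRNAs of -0.04. Quantile normalization gave -0.71 with a median of 0.08, which is -0.78 relative to the median. Without M group replicate 1, the library that stood apart, it was -0.89. Leaving out any of the 6 libraries gave -1.09 to -0.84.

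The 5p arm is the arm that has values, and no arm ratio could be computed. Over the 6 libraries there were 4472 reads of mmu-miR-186-5p among 21034714 miRNA reads. The lowest total of any row is 2 reads, but the paper does not give the rule by which names were listed. A limit for mmu-miR-186-3p therefore cannot be read from the table. Such a missing arm was uncommon at this level. Of 84 miRNA arms with a mean of at least 100 RPM whose hairpin has both arms in the sequence table, 77 had the other arm listed and 7 did not. The other 6 were mmu-miR-100-5p, mmu-miR-23a-3p, mmu-miR-199a-5p, mmu-miR-96-5p, mmu-miR-374b-5p and mmu-miR-298-5p. Among the 40 arms between 100 and 400 RPM, 37 had the other arm listed, with a median ratio of 15.0 to the other arm and a range of 0.00262 to 1073. The ratio was above 100 for 10 of these 37 and below 1 for 9, so large ratios were found for several arms of this level.

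The spread between mice of the same group does not use the difference between the groups. The within-group SD of log2(RPM + 1) for mmu-miR-186-5p was 0.20 in the J group and 0.23 in the M group, 0.21 when pooled. It was set beside the 20 miRNAs nearest to it in mean level, 10 above and 10 below. Their pooled SDs ranged from 0.07 to 1.10 with a median of 0.34, and 6 of the 20 had a smaller pooled SD than mmu-miR-186-5p. In the J group 5 of the 20 neighbours had a smaller SD (median of the neighbours 0.28), and in the M group 10 of 20 did (median 0.23), so mmu-miR-186-5p lay in the middle of them there.

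The 3 neighbours just above in level were mmu-miR-148a-5p, mmu-miR-122-3p and mmu-miR-1843b-5p, with pooled SDs of 0.24, 0.38 and 0.17. The 3 just below were mmu-miR-146b-5p, mmu-miR-484 and mmu-miR-423-3p, with 0.42, 0.37 and 0.35. mmu-miR-148a-5p and mmu-miR-122-3p are the minor arms of hairpins whose main arms are abundant in hepatocytes, and mmu-miR-146b-5p is induced in inflammation. Of these 6, only mmu-miR-1843b-5p varied less between mice of a group than mmu-miR-186-5p.

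**Figure D2:**
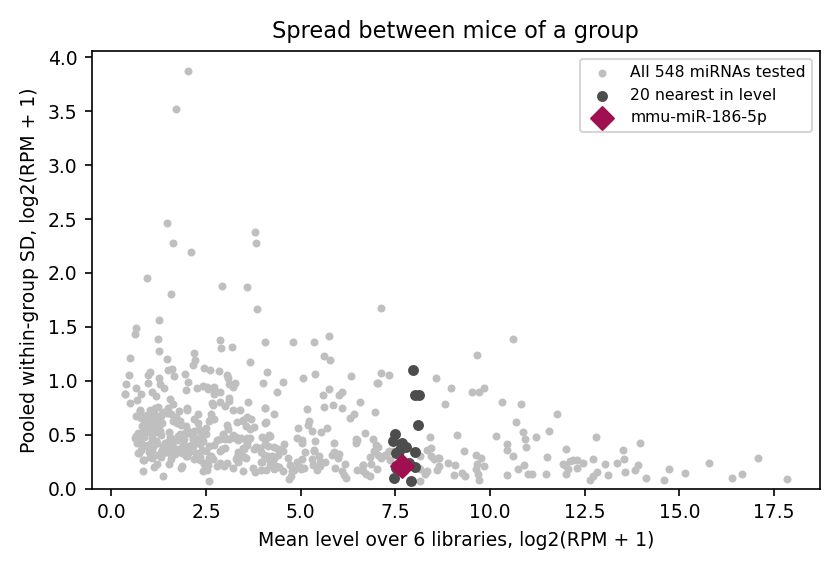
Pooled within-group SD (vertical axis) against the mean level over the 6 libraries (horizontal axis), both in log2(RPM + 1), for the 548 miRNAs tested. mmu-miR-186-5p, the diamond at an SD of 0.21, lies in the lower part of its 20 neighbours (dark points, 0.07 to 1.10).

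By Pearson's r the miRNA with the most similar pattern was mmu-let-7d-5p, a member of the let-7 family. Likeness was measured as r of log2(RPM + 1) over the 6 libraries, among 273 other mouse miRNAs with a mean of at least 10 RPM. The points share library, depth and the split into J and M, so r is a description. For mmu-let-7d-5p r was 0.997. It had 1036, 1149 and 1145 RPM in J group replicates 1 to 3, and 1819.6, 1851 and 1529 RPM in M group replicates 1 to 3. The order of the libraries is close to that of mmu-miR-186-5p, with J group replicate 1 lowest in its group and M group replicate 3 lowest in its group. Its difference was -0.64 (SE 0.17, limma adjusted p = 0.43) and passed the thresholds of the study, though not under quantile normalization. The amount of mmu-miR-186-5p per mmu-let-7d-5p was 0.121, 0.137 and 0.140 for J group replicates 1 to 3, against 0.172, 0.169 and 0.156 for M group replicates 1 to 3. These ratios do not overlap between the groups, and they are lower in the J libraries. As mmu-miR-186-5p was chosen for its difference and that of mmu-let-7d-5p is smaller, this split is no separate result. The ratios to mmu-miR-103-3p did not overlap either (0.079 to 0.094 for J, 0.118 to 0.176 for M).

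The next 7 by likeness were mmu-miR-425-5p (r = 0.954), mmu-miR-185-5p (0.954), mmu-miR-221-5p (0.952), mmu-miR-191-5p (0.946), mmu-miR-145a-3p (0.941), mmu-let-7g-5p (0.932) and mmu-miR-200c-3p (0.910). All 8 were lower in the J group, which follows from choosing them by likeness to a miRNA that is lower there. Over the 273 candidates the median r was 0.27, and mmu-miR-340-5p, from an intron of Rnf130, had the lowest at -0.90. With Spearman's correlation in place of Pearson's, 3 of the 8 names were shared and mmu-let-7d-5p was not among them, so the names, the first included, depend on the measure.

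mmu-miR-191-5p was the one of the 8 with a larger difference than mmu-miR-186-5p. It had 2674, 2281 and 3224 RPM under JTXK and 7259.9, 7589 and 4262 RPM under water, a difference of -1.19 (SE 0.26, limma adjusted p = 0.42), past the thresholds under all 18 settings tried. As in mmu-miR-186-5p, M group replicate 3 was the lowest M library. The ratio of mmu-miR-186-5p to mmu-miR-191-5p was 0.0470, 0.0691 and 0.0498 for J group replicates 1 to 3, against 0.0432, 0.0413 and 0.0559 for M group replicates 1 to 3, and here the groups overlap. Relative to mmu-miR-191-5p, the lowest and the highest ratio were an M and a J library.

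Likeness was also measured after each group's mean was subtracted, which removes the difference between J and M. mmu-let-7d-5p again had the highest r, 0.976. It was followed by mmu-miR-744-5p (0.927), mmu-miR-182-5p (0.908), mmu-miR-351-5p (0.889), mmu-miR-6240 (0.887), mmu-miR-6236 (0.883), mmu-miR-221-5p (0.868) and mmu-miR-6538 (0.866). The median over the 273 was 0.21, and 2 names, mmu-let-7d-5p and mmu-miR-221-5p, are in both sets of 8. mmu-miR-744-5p lies in an intron of Map2k4. It had 205, 323 and 362 RPM under JTXK and 431, 378 and 297 RPM under water, which overlap, and its difference of -0.34 did not pass the thresholds (SE 0.28, limma adjusted p = 0.71).

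mmu-miR-6538 followed mmu-miR-186-5p within the groups and differed from it between them. It had 83.7, 206 and 166 RPM under JTXK and 81.9, 82.4 and 58.7 RPM under water, so each J library lay above each M library. Its difference was 0.94 (SE 0.37, limma adjusted p = 0.71), past the thresholds in the direction opposite to mmu-miR-186-5p. It no longer passed when J group replicate 2 or 3 or any M library was left out, or with the replicate number as a block, with values between 0.68 and 1.32 over all settings. Over all 6 libraries its r with mmu-miR-186-5p was -0.51. After subtraction of the group means less is left to rank, and with Spearman's correlation 2 of the 8 names were shared and after median-of-ratios scaling 5.

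**Figure D3:**
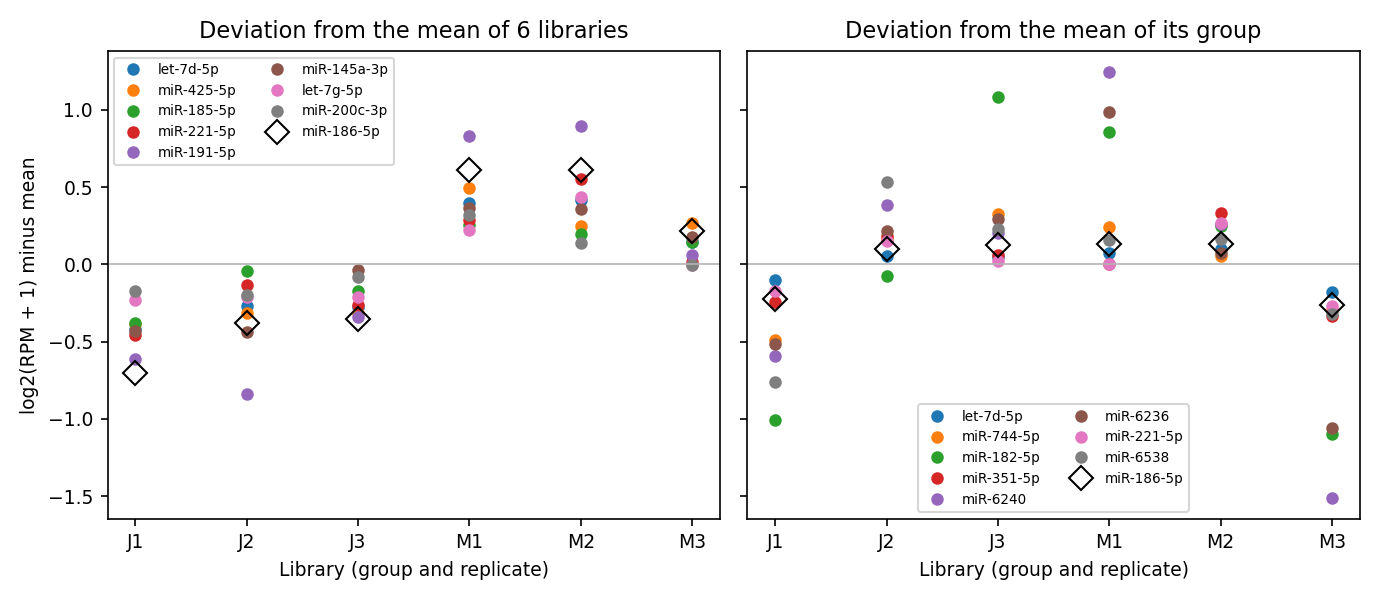
log2(RPM + 1) in each library (horizontal axis) as the deviation from the mean of the 6 libraries (left) or from the mean of its own group (right), for mmu-miR-186-5p (open diamonds) and the 8 miRNAs most like it by that measure. On the left the J libraries of these miRNAs lie below 0 with the M libraries above them, and on the right J group replicate 1 and M group replicate 3 are the low libraries of their groups.

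The other miRNAs often used as qPCR references mostly had differences below 0 as well, though few passed. The list held 15 of them besides mmu-miR-186-5p, and it was drawn up with earlier results of these data known. Of the 15, 2 passed the thresholds lower in the J group and 0 higher, or 13.3% against 5.29% of all miRNAs tested. These were mmu-miR-191-5p and mmu-miR-425-5p, whose genes lie in the same cluster. The median difference over the 15 was -0.34, against -0.13 over all 548 miRNAs. In 12 of the 15 the difference was below 0, but 9 of 15 under quantile normalization, where the median was -0.08. Without M group replicate 1 the same pair passed and the median was -0.15. With M group replicate 2 left out, 5 passed lower (mmu-let-7i-5p, mmu-miR-25-3p and mmu-miR-93-5p besides the pair) and 1 higher (mmu-miR-192-5p), with a median of -0.44, while over all 548 miRNAs 38 passed lower and 7 higher. mmu-miR-425-5p did not pass under quantile normalization.

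mmu-miR-425-5p had 55.6, 58.3 and 58.5 RPM under JTXK and 102.8, 86.8 and 88.0 RPM under water, which do not overlap (difference -0.67, SE 0.21, limma adjusted p = 0.64). mmu-miR-423-5p, from an intron of Nsrp1, averaged 82.2 ± 16.8 RPM for J (SD, n = 3) against 119 ± 7.01 for M (SD, n = 3). It did not pass in the main limma fit, with a difference of -0.55 (SE 0.24, limma adjusted p = 0.71). mmu-miR-103-3p, which can come from introns of Pank2 or Pank3, averaged 1696 ± 98.1 RPM for J and 2144 ± 456 for M (SD, n = 3). mmu-miR-16-5p averaged 2587 ± 308 RPM for J and 3336 ± 904 for M (SD, n = 3). The libraries of both overlapped, with differences of -0.32 and -0.34 that did not pass. mmu-let-7i-5p (-0.79), mmu-miR-93-5p (-0.48), mmu-miR-25-3p (-0.42), mmu-miR-24-3p (-0.35), mmu-miR-361-5p (-0.16), mmu-miR-423-3p (-0.15) and mmu-miR-152-3p (-0.14) did not pass in the main limma fit either. mmu-let-7i-5p passed under 4 of the 18 settings and mmu-miR-423-5p under 3, lower in the J group. Above 0 were mmu-miR-30e-5p (0.36), mmu-miR-484 (0.35) and mmu-miR-192-5p (0.28), a miRNA abundant in liver, and none of these passed with limma on the deposited RPM of all 6 libraries. mmu-miR-30e-5p and mmu-miR-192-5p passed, higher in the J group, after median-of-ratios scaling and with edgeR. mmu-miR-30e-5p also passed with DESeq2 and, with mmu-miR-484, without J group replicate 1, and mmu-miR-192-5p without M group replicate 2.

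**Figure D4:**
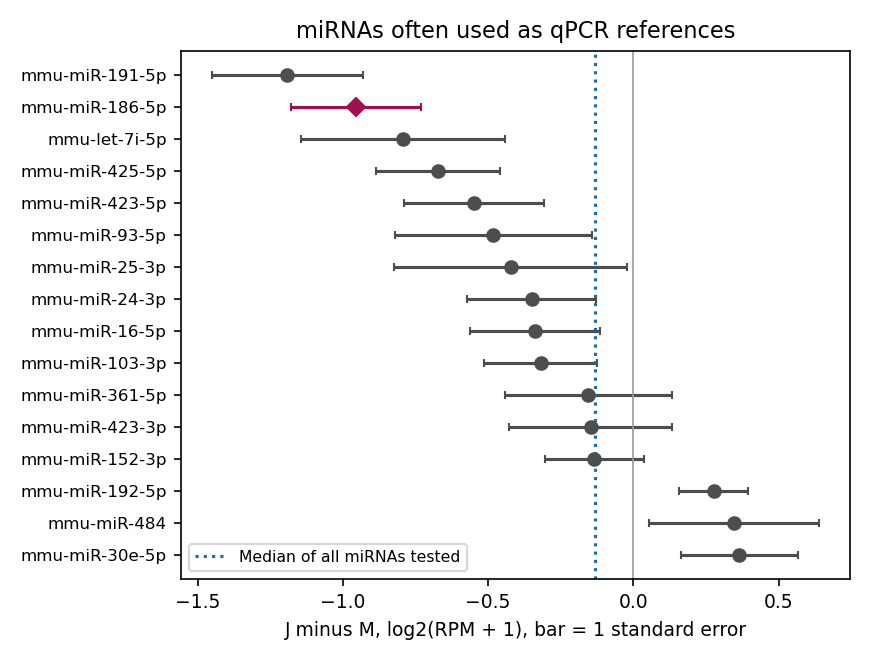
Difference J minus M in log2(RPM + 1) with 1 standard error (horizontal axis) for mmu-miR-186-5p (diamond) and 15 other miRNAs often used as qPCR references, one per line. 12 of the 15 others lie below 0, the dotted line is the median of all miRNAs tested (-0.13), and mmu-miR-191-5p at -1.19 is the only one below mmu-miR-186-5p at -0.96.

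Of the miRNAs that share the layout of miR-186, a hairpin in a same-strand intron of a protein coding gene, few passed. Without mmu-miR-186-5p, 142 such miRNAs were tested, of which 6 passed lower in the J group and 1 higher, or 4.93% against 5.29% of all miRNAs tested. Their median difference was -0.14, close to that of all miRNAs (-0.13), and 0.04 under quantile normalization. After median-of-ratios scaling 4 of the 142 passed lower and 3 higher (13 and 17 over all 548 miRNAs). The count also moved when 1 library was left out, as did that over all 548 miRNAs. It was 4 lower and 1 higher without M group replicate 1 (22 and 10 over all miRNAs), 13 lower and 2 higher without M group replicate 2 (38 and 7 over all), and 12 lower and 0 higher without M group replicate 3 (29 and 9 over all). A position in an intron was read from hairpin coordinates, which 653 of 762 mouse rows had through their names.

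With a mean of at least 10 RPM, 81 intronic miRNAs remained, and 4 passed lower and 1 higher, or 6.17% against 5.29% of all miRNAs tested. This balance depended on the scaling, as did that over all 548 miRNAs. It was 3 lower and 3 higher after median-of-ratios scaling (13 and 17 over all) and with edgeR (27 and 18 over all). With DESeq2 it was 5 lower and 3 higher (23 and 13 over all). The lower ones were mmu-miR-342-3p (an intron of Evl, -1.79), mmu-miR-146b-5p (Mfsd13a, -1.54), mmu-miR-148b-3p (Copz1, -0.59) and mmu-let-7g-5p (Wdr82, -0.44), and the higher one was mmu-miR-6538 (Rnf144a, 0.94). Among these 5 only mmu-miR-342-3p and mmu-miR-146b-5p had a larger negative difference than mmu-miR-186-5p, and both are known from immune cells. Without M group replicate 1, mmu-miR-342-3p and mmu-miR-6538 no longer passed, and mmu-miR-10b-5p passed higher in the J group, against its difference of -0.59 with all 6 libraries. The count was 7 lower and 1 higher without M group replicate 2 (38 and 7 over all 548 miRNAs), and without M group replicate 3 it was 8 lower and 0 higher (29 and 9 over all). mmu-let-7g-5p no longer passed after median-of-ratios scaling, with edgeR or DESeq2, or without J group replicate 3 or M group replicate 2.

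The 5 most abundant intronic miRNAs were mmu-let-7f-5p (Huwe1), mmu-miR-26a-5p (Ctdspl), mmu-let-7g-5p (Wdr82), mmu-miR-30e-5p (Nfyc) and mmu-miR-101b-3p (Rcl1). mmu-let-7f-5p and mmu-miR-26a-5p are each also made from another hairpin, so their reads cannot be given to the named host alone. The differences of the 5 were -0.15, -0.15, -0.44, 0.36 and 0.26. mmu-miR-101b-3p averaged 7992 ± 256 RPM for J (SD, n = 3) against 6706 ± 1014 for M (SD, n = 3), with all J libraries above all M libraries, and did not pass. Only mmu-let-7g-5p of these 5 passed with limma on the deposited RPM of all 6 libraries. After median-of-ratios scaling and with edgeR or DESeq2 it did not pass, and mmu-miR-30e-5p passed, higher in the J group.

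**Figure D5:**
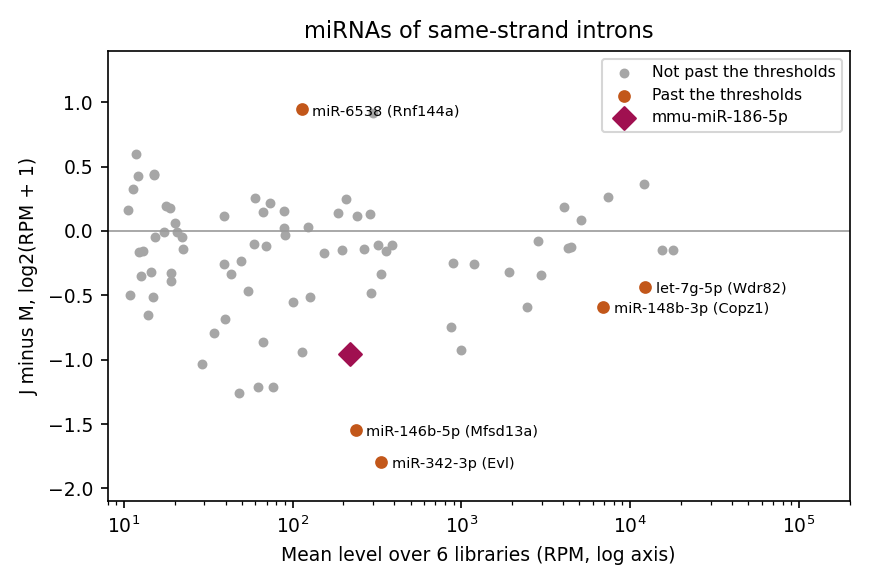
Difference J minus M in log2(RPM + 1) (vertical axis) against the mean level in RPM (horizontal axis, log scale) for mmu-miR-186-5p (diamond) and the 81 other miRNAs of same-strand introns with a mean of at least 10 RPM. The 5 orange points passed the thresholds, 4 below 0 and 1 above.

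On chromosome 3, where Mir186 lies, 15 other miRNAs had a row and 11 were tested. Of these, 0 passed in either direction with limma, against 5.29% of all miRNAs tested. With edgeR, 1 passed, mmu-miR-3963, higher in the J group, where 27 of all 548 miRNAs passed lower and 18 higher. It also passed without J group replicate 1 (18 lower and 13 higher over all). Leaving out M group replicate 2, 2 passed lower, mmu-miR-15b-5p and mmu-miR-15b-3p, where 38 passed lower and 7 higher over all. The median difference was -0.34, which was -0.13 without M group replicate 1 and -0.09 when 10 RPM were added before the logarithm. The 5 most abundant were mmu-miR-16-5p, mmu-miR-3963, mmu-miR-15b-5p, mmu-miR-137-3p and mmu-miR-15b-3p. Both arms of miR-15b come from the Smc4 intron, while mmu-miR-16-5p is also made from Mir16-1 on chromosome 14, so its reads cannot be given to chromosome 3 alone. mmu-miR-15b-5p averaged 40.1 ± 11.1 RPM for J (SD, n = 3) against 93.5 ± 83.7 for M (SD, n = 3) (difference -0.86), a spread in the M group nearly as large as its mean. mmu-miR-3963, the nearest listed neighbour, was 1723 ± 594 and 1177 ± 203 RPM (0.50). mmu-miR-137-3p differed by 0.045 and mmu-miR-15b-3p by -0.33 on the log2 scale. These miRNAs of the chromosome lay on both sides of 0.

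Some markers of other liver cell types differed along the same split of the libraries. In whole liver, fewer cells of a type and less RNA per cell cannot be told apart. The 7 miRNAs of blood-derived immune cells summed to 988 to 1370 RPM in the J libraries (median 1016) and to 1768 to 6579 RPM under water (median 2306), and the highest was M group replicate 1. The sums do not overlap between the groups. Of the single members, 2 of 7 had every J library below every M library, against 9.31% of all 548 miRNAs tested. All 7 had differences below 0 (6 of 7 under quantile normalization and without M group replicate 1 or J group replicate 1), 2 passed the thresholds (mmu-miR-342-3p and mmu-miR-146a-5p, 28.6% against 5.29% of all miRNAs tested), and the median difference was -1.12. Without M group replicate 1 the median was -0.50 and 1 passed, mmu-miR-146a-5p, and without M group replicate 2 the median was -1.56 and 4 passed, where 38 of all 548 miRNAs passed lower.

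Within the M group the immune sum varied more than mmu-miR-186-5p. M group replicates 1 and 2 had 313 RPM each of mmu-miR-186-5p, while the immune sum was 6579 and 2306 RPM. The 4 stromal miRNAs in the table summed to 12582 to 16889.6 RPM in the J group and 16765 to 25242 RPM in the M group, with a median difference of -0.51, and 3 passed lower in the J group (75.0% against 5.29% of all miRNAs tested). Of the stromal miRNAs, 1 passed after median-of-ratios scaling, with edgeR or DESeq2, or without J group replicate 2 or M group replicate 3, and 0 under quantile normalization. The 5 bile duct miRNAs overlapped between the groups (950.1 to 2379 RPM and 1203 to 4298 RPM), with a median difference of -0.68 (-0.24 without M group replicate 1 and -1.17 without M group replicate 3), and 0 passed with limma on the deposited RPM of all 6 libraries. mmu-miR-200b-3p and mmu-miR-429-3p passed, lower in the J group, without M group replicate 3, and without J group replicate 3 mmu-miR-200b-3p did.

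The hepatocyte list was at 391597 to 419287 RPM in the J group and 392287 to 450543 RPM in the M group. Its median difference was -0.0042. With limma on the deposited RPM of all 6 libraries, 0 of 5 passed the thresholds, against 5.29% of all miRNAs tested. The sign of the median turned with the setting, from -0.14 without J group replicate 3 to 0.23 without J group replicate 1, with 0.17 under quantile normalization and 0.10 when scaled by the median of ratios. mmu-miR-192-5p passed, higher in the J group, after median-of-ratios scaling, with edgeR and without M group replicate 2, and mmu-miR-148a-3p, lower, without J group replicate 1. These miRNAs, led by mmu-miR-122-5p, the main miRNA of hepatocytes, are abundant in each library, which fits the labelled tissue. The 3 red blood cell miRNAs (median difference -0.12) and the 1 endothelial miRNA in the table, mmu-miR-126a-3p (0.09), did not pass either with limma on the deposited RPM of all 6 libraries. Both signs turned when 1 library was left out. The red blood cell median was between -0.63 (M group replicate 2 left out) and 0.47 (M group replicate 3 left out), and the endothelial value between -0.095 (J group replicate 2 left out) and 0.25. mmu-miR-144-3p passed, higher in the J group, without M group replicate 3. None of the marker miRNAs of these 6 lists that are in the table was at 0 reads in any library. The part of other cell types in the difference of mmu-miR-186-5p was not tested.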

How the data were processed

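The authors made small RNA libraries from liver RNA of 6 mice (NEBNext kit, Illumina) and deposited 1 table of RPM, reads scaled by the library's total of miRNA reads, for 1039 miRNA names. The submitters' notes name a genome build other than the GRCm38 used here for coordinates, and no coordinate was converted. The aligner was not given in the sources used here. Every deposited RPM value was a whole number, within 0.01, once divided by the smallest nonzero RPM of its library. That smallest value was taken as 1 read, and the read counts and library totals given here rest on it.

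The main fit took log2(RPM + 1) of the 548 miRNAs whose J or M mean exceeded 1 RPM. It was made with limma 3.58.1 (R 4.3.3, eBayes with trend, two-sided). Called means a log2 difference of more than 0.3 in size with p under 0.05 before adjustment. Whole reads were also tested with DESeq2 1.42.0 and with edgeR 4.0.16, among 17 alternatives. The fits were tested on simulated data. Structure was computed with RNAfold 2.7.2. Per the labels each library is a separate mouse. The p-values set group differences against the spread between libraries, which holds mouse and library preparation together.

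The miRNA, the lists and the tests were chosen with earlier results of these data known. Named miRNAs are mmu-miR-186-5p, the 8 most correlated by each measure among those with a mean of at least 10 RPM, the 3 nearest in level on each side, the reference list, and, of the intronic and chromosome 3 lists, called members with at least 10 RPM and the 5 most abundant. mmu-miR-10b-5p, mmu-miR-340-5p, the 6 arms with no listed partner and the markers named beside a call were added after their values were seen.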

Additional observations from a re-analysis of the deposited data

How the results depend on the processing

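Over the 17 alternatives, mmu-miR-186-5p was lower in the J group each time, between -1.09 and -0.71 (J minus M, log2). Quantile normalization gave -0.71, a spread within groups of 0.14, and medians of -0.44 for the bile duct list and 0.044 for the intronic list. With 10 RPM added, the chromosome 3 median was -0.089. edgeR called 45 miRNAs in place of 29. Of the 8 nearest by likeness, Spearman's correlation shared 3 as measured and 2 with group means subtracted, where median-of-ratios scaling shared 5. Calls lower and higher were 21 and 8 with limma, 13 and 17 after median-of-ratios scaling, and 11 and 20 under quantile normalization. Leaving out 1 library gave 21 to 45 calls (45 without M group replicate 2), -1.09 to -0.84 for mmu-miR-186-5p and -1.17 to -0.24 for the bile duct list (-0.24 without M group replicate 1, -0.45 without J group replicate 1, and -1.17 without M group replicate 3). The causes were not tested. The arm ratio could not give a value.

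Nothing in the sources ties J and M samples that share a replicate number. Their deviations from the group means correlated at 0.045, 0.058 and -0.0059, and those of the other J and M pairs at -0.24 to 0.16. These values cannot tell whether such samples share anything else. With the replicate block, 27 miRNAs were called (19 lower, 8 higher) and mmu-miR-186-5p was at -0.96 (standard error 0.26). At read counts of 450 to 1068, the counting error of mmu-miR-186-5p was smaller than its spread between mice.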

Other observations

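The row of mmu-miR-186-5p carries a range from 1 to 21 and a length of 22, where the length is that of the RefSeq mature sequence, and what the range stands for is not given in the sources used here. Among 58 other tested rows with the same range and length, 1 was called lower in the J group and 0 higher (5.29% of all 548 miRNAs tested were called), and their median difference was -0.14, beside -0.13 over all 548 miRNAs tested.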
